A study of Mus musculus with 2 samples.

Results

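The homeostatic microglia genes described here were Cx3cr1, P2ry12, Tmem119, Selplg, Gpr34, Siglech, Sall1 and Fcrls, 8 of the 25595 genes listed in either count table, and all 8 were listed in both. They were taken by name, and their levels were read in microglia, dividing microglia and border macrophages of each library, over cells in which 300 genes or more were found and mitochondrial genes took 25% of UMIs or less (unique molecular identifiers, each marking 1 captured RNA molecule). The series held 1 library from N-PRα-KO mice, which carried Nestin-Cre and floxed Pdgfra, and 1 library from WT mice of the C57BL/6J strain. Both were made from cerebral cortex dissociated together with the meninges and enriched with magnetic beads for CD140a, the protein made from Pdgfra. Nestin-Cre acts in the neural lineage, from which microglia do not descend. The labels give neither the age and sex of the mice nor how many were pooled for a library. The genotype labels name a strain for the WT mice only. Age, sex, pooling and strain background thus cannot be told apart from genotype. With 1 library per genotype no difference had a replicate check and no test was made. All intervals are 95% and cover counting error only.

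Microglia are the resident macrophages of the brain parenchyma, and border macrophages live in the meninges and around vessels. Both descend from early yolk sac progenitors, and microglia keep a resting, or homeostatic, programme of surface receptors and regulators that depends on TGF-β signalling from the brain. The genes of that programme are commonly used to tell microglia from other macrophages, and their loss is described in activated microglia.

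Near the start of transcription, the promoters of members were searched for 2 short motifs, and shared sequence as such was not measured. RefSeq promoter sequences on GRCm38.p6 were matched for Cx3cr1, P2ry12, Siglech, Sall1 and Fcrls, and not for Tmem119, Selplg and Gpr34. The sequences of 4 members are shown from 250 bases before to 50 bases after the start, 5′ to 3′ on the strand of the gene. Capitals mark GAGGAA, a purine-rich core bound by the myeloid factor PU.1 (gene Spi1), and GGAAGT, a core bound by ETS factors in general, searched on both strands, where they read TTCCTC and ACTTCC. The 2 motifs share letters and can overlap.
P2ry12, chr3:59262936-59263235, minus strand: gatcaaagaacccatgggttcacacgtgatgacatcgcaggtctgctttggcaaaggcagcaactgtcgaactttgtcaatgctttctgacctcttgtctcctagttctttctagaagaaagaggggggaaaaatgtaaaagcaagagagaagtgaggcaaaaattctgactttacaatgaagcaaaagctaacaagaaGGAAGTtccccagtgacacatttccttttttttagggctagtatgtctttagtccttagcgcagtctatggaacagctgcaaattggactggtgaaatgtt
Fcrls, chr3:87263475-87263774, minus strand: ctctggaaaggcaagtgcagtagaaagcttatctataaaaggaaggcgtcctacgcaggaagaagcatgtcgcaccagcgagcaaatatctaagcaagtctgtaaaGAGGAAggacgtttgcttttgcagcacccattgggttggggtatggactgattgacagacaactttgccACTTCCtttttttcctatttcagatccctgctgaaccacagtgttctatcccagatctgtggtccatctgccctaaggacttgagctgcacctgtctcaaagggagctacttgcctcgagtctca
Siglech, chr7:55767934-55768233, plus strand: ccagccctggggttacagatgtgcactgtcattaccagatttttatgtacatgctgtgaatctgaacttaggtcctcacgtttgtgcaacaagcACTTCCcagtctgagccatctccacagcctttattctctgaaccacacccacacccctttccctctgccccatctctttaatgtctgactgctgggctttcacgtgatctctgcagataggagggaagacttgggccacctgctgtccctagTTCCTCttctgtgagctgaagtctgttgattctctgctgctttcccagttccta
Cx3cr1, chr9:120068247-120068546, minus strand: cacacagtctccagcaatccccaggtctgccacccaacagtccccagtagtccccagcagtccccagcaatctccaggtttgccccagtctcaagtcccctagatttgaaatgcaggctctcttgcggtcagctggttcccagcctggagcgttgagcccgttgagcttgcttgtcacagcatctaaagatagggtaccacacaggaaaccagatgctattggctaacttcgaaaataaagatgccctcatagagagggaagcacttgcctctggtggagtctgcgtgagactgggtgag
Fcrls and Siglech held 1 match of each motif, P2ry12 held 1 GGAAGT and Cx3cr1 held neither. Of the Sall1 promoters, which are not shown, that at chr8:89042813-89043112 held 1 GGAAGT and the others held neither motif. Over all 32851 promoters of the same length, 28.3% held GAGGAA, 23.8% held GGAAGT and 43.4% held either, so a match in such a window was common. A match is a description of letters and not of binding.

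The N-PRα-KO library held 41982217 UMIs and 4168 cells after filtering, and the WT library 43459947 UMIs and 9896 cells, at median depths of 5775 and 3263.5 UMIs per cell. Before called doublets were removed, the filters on genes and mitochondrial share left 50.3% of the barcodes in the N-PRα-KO table and 88.0% of those in the WT table. Levels are given in CPM (UMIs of a gene per 1000000 UMIs of its class and library). Pdgfra, the targeted gene and the antigen of the enrichment, stood at 1931 CPM in N-PRα-KO oligodendrocyte-lineage-like cells and 4671 CPM in WT ones. These classes held 66 and 5024 cells, at median depths of 6335 and 3329 UMIs. Mean Pdgfra UMIs per cell were 17.5 and 17.7, so the gap in CPM was not seen per cell. In microglia Xist stood at 506 CPM in the N-PRα-KO and 1182 CPM in the WT library and 4 Y-linked genes at 108 and 9.85 CPM, so the libraries differed in these sex-linked genes. Classes were named from marker genes after clustering in which the 8 genes were used neither for clustering nor for naming. In the N-PRα-KO library this gave 537 microglia-like, 26 dividing microglia-like and 94 border-macrophage-like cells, called microglia, dividing microglia and border macrophages below, against 492, 123 and 45 cells in the WT library. Dividing cells were 4.62% of all microglia in the N-PRα-KO library (26 of 563, interval 3.04 to 6.69) and 20% in the WT library (123 of 615, interval 16.9 to 23.4). The microglia of each library fell into sub-clusters of their own, with 264, 145 and 127 N-PRα-KO cells in sub-clusters 1 to 3 and 367 and 124 WT cells in sub-clusters 0 and 4, so a library and a sub-cluster could not be told apart. Barcode numbers shared by both libraries numbered 105, and they touched 6 N-PRα-KO and 5 WT microglia.

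The classes were named from markers other than the 8 genes, so the levels of those markers describe the classes and do not test their names. The 7 microglia markers summed to 11910 CPM in N-PRα-KO microglia and 10280 CPM in WT microglia, against 2322 and 1061 CPM in the border macrophages of the same libraries. The 10 border macrophage markers summed to 13160 CPM in N-PRα-KO border macrophages and 15450 CPM in WT border macrophages, against 363 and 562 CPM in microglia. The 12 division markers summed to 8157 CPM in N-PRα-KO dividing microglia and 9018 CPM in WT dividing microglia, against 75.8 and 146 CPM in microglia. Monocyte and dendritic cell markers summed to 15.8 CPM in N-PRα-KO microglia and 7.74 CPM in WT microglia, and Ly6c2, Cd209a and Napsa were at 0 in both. Of the marker lists of non-myeloid tissues, choroid plexus markers summed to 1542 CPM in N-PRα-KO microglia and 108 CPM in WT microglia, astrocyte markers to 1049 and 553 CPM, fibroblast markers to 609 and 158 CPM, endothelial markers to 579 and 72.5 CPM and mural markers to 470 and 62.6 CPM. Neuronal-lineage markers summed to 63.0 and 64.75 CPM and oligodendrocyte-lineage markers to 292.5 and 395 CPM, with Pdgfra itself at 25.4 and 138 CPM. Their part in the results below was not tested.

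In microglia all 8 genes were detected in both libraries, and 6 of them had a UMI in at least 89.6% of cells. Cx3cr1, the receptor for fractalkine (chr9:119901616-120069879, minus strand, in the GENCODE M21 annotation of GRCm38), stood at 4873 CPM in N-PRα-KO microglia (interval 4794 to 4952, 14778 UMIs) and 4420 CPM in WT microglia (4312 to 4531, 6280 UMIs). Its annotated span overlaps several other genes, among them Xirp1 and Csrnp1 on the same strand. P2ry12, the ADP receptor that steers microglial processes (chr3:59216272-59262871, minus strand, overlapping Med12l on the plus strand), stood at 6567 CPM in N-PRα-KO microglia (6476 to 6659) and 7682 CPM in WT microglia (7538 to 7827). Each library thus held several UMIs of both receptors in the typical microglial cell, on average 27.5 of Cx3cr1 and 37.1 of P2ry12 in the N-PRα-KO library and 12.8 and 22.2 in the WT library, where cells were shallower. Gpr34, a receptor for lysophosphatidylserine (chrX:13632089-13640858, plus strand, overlapping Cask on the minus strand), stood at 604 CPM in N-PRα-KO microglia (577 to 632) and 1231 CPM in WT microglia (1174 to 1290). Gpr34 was the 1 of these 3 receptors that differed between the libraries by the 2-fold limit used here.

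Among the other surface proteins, Siglech was close between the libraries, Fcrls was higher in N-PRα-KO microglia by less than the 2-fold limit, and Tmem119 and Selplg were far apart. Siglech, a sialic acid-binding lectin that signals through the adaptor Tyrobp (chr7:55768178-55778925, plus strand), stood at 1770 CPM in N-PRα-KO microglia (1723 to 1818) and 1890 CPM in WT microglia (1819 to 1963). Fcrls, an Fc receptor-like scavenger protein (chr3:87250758-87263738, minus strand), stood at 1742 CPM in N-PRα-KO microglia (1695 to 1790) and 1174 CPM in WT microglia (1118 to 1232). Tmem119, a transmembrane protein widely used as a microglial marker (chr5:113793729-113800516, minus strand), stood at 443 CPM in N-PRα-KO microglia (420 to 467.5, 1344 UMIs) and 102 CPM in WT microglia (86.1 to 120, 145 UMIs). Selplg, the selectin ligand PSGL-1 (chr5:113818536-113832644, minus strand), stood at 665 CPM in N-PRα-KO microglia (637 to 695, 2018 UMIs) and 23.9 CPM in WT microglia (16.6 to 33.4, 34 UMIs). The 2 genes with the widest gap between the libraries are neighbours on chromosome 5, on the same strand, with 18019 bases between them. Sall1, a zinc finger transcription factor needed for microglial identity (chr8:89027235-89044162, minus strand), stood at 626.5 CPM in N-PRα-KO microglia (599 to 655) and 1102 CPM in WT microglia (1048 to 1158).

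**Figure D1:**
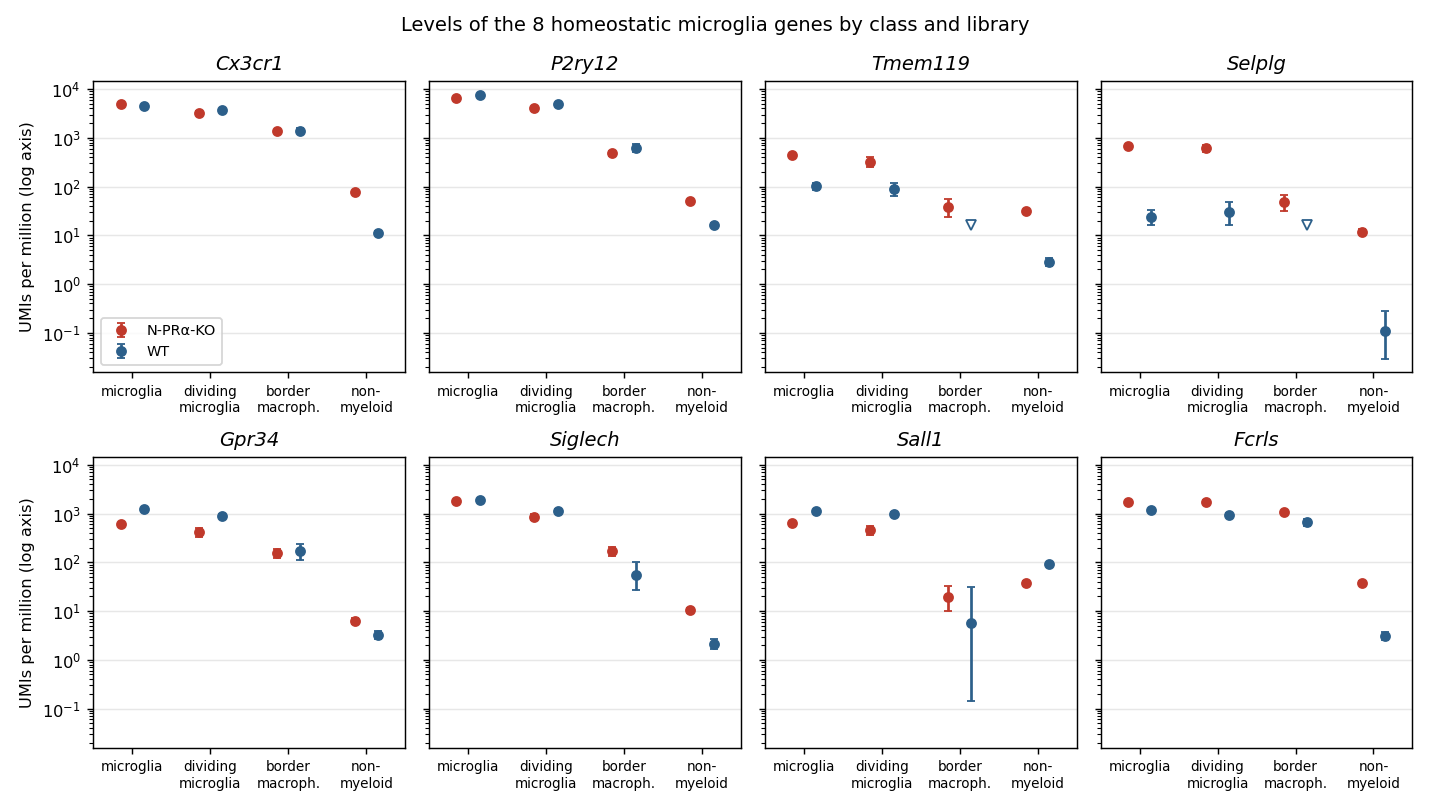
Level of each of the 8 genes in CPM (log axis), by class on the horizontal axis, in the N-PRα-KO library (red, left) and the WT library (blue, right), with exact Poisson 95% intervals for counting error. Open triangles mark a count of 0, drawn at the level 3 UMIs would give. Selplg stood at 665 CPM in N-PRα-KO microglia and 23.9 CPM in WT microglia, while Cx3cr1 stood at 4873 and 4420 CPM.

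Because the libraries differed in depth, the share of cells with a UMI was also taken after each cell was thinned to 2000 UMIs, which left 536 N-PRα-KO and 375 WT microglia and left out 1 and 117 shallower cells. At that depth P2ry12 was found in 100% of N-PRα-KO microglia and 99.7% of WT microglia, Cx3cr1 in 99.6% and 99.2%, Siglech in 94.0% and 95.2%, and Fcrls in 95.3% and 86.1%. P2ry12, Cx3cr1 and Siglech were thus near complete detection in both libraries, while the intervals of Fcrls, 93.2 to 97.0 for N-PRα-KO and 82.2 to 89.5 for WT, did not overlap. Gpr34 was found in 64.0% of N-PRα-KO microglia (interval 59.8 to 68.1) and 85.1% of WT microglia (81.05 to 88.5), and Sall1 in 69.0% (64.9 to 72.9) and 85.1% (81.05 to 88.5). Selplg was found in 71.3% of N-PRα-KO microglia (67.2 to 75.1) and 5.87% of WT microglia (3.71 to 8.75), and Tmem119 in 55.0% (50.7 to 59.3) and 19.2% (15.3 to 23.6). The order of the libraries in these shares followed that of the CPM for each of these 4 genes. In non-myeloid cells at the same depth, 2.55% of N-PRα-KO and 0.013% of WT cells had a Selplg UMI, 6.59% and 0.467% one of Tmem119, 0.790% and 0.653% one of Gpr34, and 7.14% and 15.5% one of Sall1. All 4 shares in microglia were above these. Without thinning the shares were 93.1% and 6.10% for Selplg, 87.7% and 23.6% for Tmem119, 92.9% and 89.6% for Gpr34 and 94.4% and 89.6% for Sall1, at median depths of 5576 and 2650.5 UMIs.

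Counted per cell at the same depth, the median microglial cell held 7 of the 8 genes in N-PRα-KO cells and 6 in WT cells. All 8 were found in 16.4% of N-PRα-KO microglia (88 cells) and 0.533% of WT microglia (2 cells). With Tmem119 and Selplg set aside, a choice made after their values were seen, all of the other 6 were found in 39.4% of N-PRα-KO microglia and 59.7% of WT microglia. In border macrophages the median was 3 genes in both libraries, and in non-myeloid cells it was 0, with none of the 8 in 61.8% of N-PRα-KO and 79.1% of WT non-myeloid cells.

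**Figure D2:**
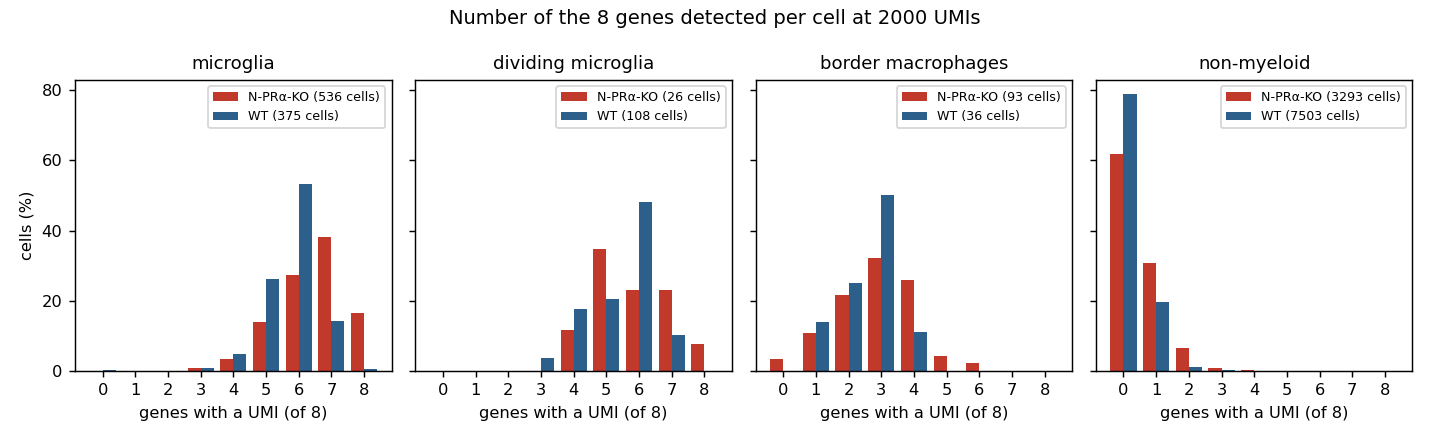
Share of cells in percent (vertical axis) by how many of the 8 genes had a UMI (horizontal axis) after each cell was thinned to 2000 UMIs, in 4 panels by class, with N-PRα-KO cells as red bars on the left and WT cells as blue bars on the right. Microglia centre on 6 to 7 genes, border macrophages on 3 and non-myeloid cells on 0.

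Within a library the microglial sub-clusters differed little in these genes. Over the N-PRα-KO sub-clusters Cx3cr1 lay between 4530 and 5002 CPM, P2ry12 between 6099 and 6801 CPM and Sall1 between 564 and 656 CPM. Over the 2 WT sub-clusters Cx3cr1 stood at 4517 and 4075 CPM, P2ry12 at 7762 and 7407 CPM and Sall1 at 1158 and 900 CPM. For each of the 8 genes every sub-cluster of the higher library lay above every sub-cluster of the other. The margin was narrow for Siglech, at 1866 CPM in the highest N-PRα-KO sub-cluster and 1889 CPM in the lowest WT sub-cluster, and for Cx3cr1, where the intervals also overlapped. Sub-cluster 2 of the N-PRα-KO library was led by the heat shock genes Hspa1b and Hspa1a, and WT sub-cluster 0 by Zfp36, Egr1 and Atf3. Across thinned microglia, P2ry12, the member with the highest mean, had a variance of 2.11 times the mean in the N-PRα-KO library and 3.5 times in the WT library, where counting alone gives 1. For the other genes this ratio lay between 1.11 and 1.74 in N-PRα-KO cells and between 1.18 and 1.72 in WT cells. This ratio grows with the mean wherever cells differ, so it does not rank the genes. Over the 28 pairs of genes, Spearman's rho across cells, which share a library and a fixed depth, had a median of 0.06 in N-PRα-KO microglia and 0.04 in WT microglia. It lay between -0.007 and 0.173 in N-PRα-KO microglia, with 27 pairs above 0. In WT microglia it lay between -0.072 and 0.229, the highest for Cx3cr1 with P2ry12, with 21 pairs above 0. These values are weak and do not show the 8 genes moving together as a set.

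In dividing microglia most of the 8 genes stood lower than in the other microglia of the same library, and all kept levels far above those of non-myeloid cells. The median log2 ratio of dividing microglia over microglia was -0.51 in the N-PRα-KO library and -0.30 in the WT library, against 0.04 and 0.02 over all genes at 20 CPM or more in either class. The interval of the ratio lay below 0 for 6 of the 8 genes in each library, a count not taken over all genes. P2ry12 stood at 4068 CPM in N-PRα-KO dividing microglia, against 6567 CPM in N-PRα-KO microglia, and at 4849 CPM in WT dividing microglia, against 7682 CPM in WT microglia. These gave log2 ratios of -0.69 (-0.79 to -0.60) and -0.66 (-0.73 to -0.60), the closest between the libraries. Siglech stood at 861 CPM in N-PRα-KO dividing microglia, against 1770 CPM in N-PRα-KO microglia, and at 1116 CPM in WT dividing microglia, against 1890 CPM in WT microglia. It was the 1 gene of the 8 past the 2-fold limit among N-PRα-KO cells, with a log2 ratio of -1.04 (-1.25 to -0.84), where 9.38% of all genes were that far lower. No member was past that limit in the WT library, where Siglech had -0.76 (-0.89 to -0.63) and 4.65% of all genes were lower and 10.8% higher by as much.

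The other receptors and the regulator followed with smaller gaps. Cx3cr1 stood at 3276 CPM in N-PRα-KO dividing microglia and 3675 CPM in WT dividing microglia, with log2 ratios over microglia of -0.57 (-0.68 to -0.47) and -0.27 (-0.34 to -0.19). Gpr34 stood at 415 and 887 CPM, with ratios of -0.54 and -0.47, and Sall1 at 450.0 and 976 CPM, with ratios of -0.48 and -0.18. Each of these intervals lay below 0. Tmem119 stood at 320 CPM in N-PRα-KO dividing microglia (74 UMIs) and 88.9 CPM in WT dividing microglia (45 UMIs), and its interval lay below 0 in the N-PRα-KO library (-0.83 to -0.13) and not in the WT library (-0.72 to 0.29). Fcrls stood at 1757 CPM in N-PRα-KO dividing microglia, with a log2 ratio of 0.01 (-0.14 to 0.16), and at 933 CPM in WT dividing microglia, with -0.33 (-0.48 to -0.18). Selplg stood at 614.5 and 29.6 CPM, and its ratios of -0.12 (-0.37 to 0.13) and 0.31 (-0.67 to 1.22) had intervals that included 0. The N-PRα-KO class held 26 cells and all of its values rest on those.

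Border macrophages held much less of most of the 8 genes, with a wide range from gene to gene. The median log2 ratio of border macrophages over microglia was -3.48 in the N-PRα-KO library and -2.75 in the WT library, against 0.12 and 0.23 over all genes. Tmem119 and Selplg had 0 UMIs in WT border macrophages and entered the WT median at 3. That median is thus set in part by this floor and is not a measured difference from the N-PRα-KO one. Past the 2-fold limit were 7 of the 8 genes among N-PRα-KO cells and 6 among WT cells, all lower, where 7.47% and 10.1% of all genes were lower and 11.9% and 20.3% higher by as much. Fcrls was nearest to its microglial level, at 1070 CPM in N-PRα-KO border macrophages and 656 CPM in WT border macrophages, with log2 ratios of -0.70 (-0.82 to -0.59) and -0.84 (-1.12 to -0.57). Cx3cr1 came next, at 1365 CPM in N-PRα-KO and 1406 CPM in WT border macrophages, with ratios of -1.84 (-1.94 to -1.74) and -1.65 (-1.84 to -1.47). Fcrls and Cx3cr1 were thus shared by both kinds of macrophage at levels well above the 38.1 and 3.04 CPM of Fcrls and the 78.5 and 11.2 CPM of Cx3cr1 in N-PRα-KO and WT non-myeloid cells.

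P2ry12, Gpr34 and Siglech lay lower but still above the non-myeloid level. P2ry12 stood at 485 CPM in N-PRα-KO border macrophages and 617 CPM in WT border macrophages, with log2 ratios over microglia of -3.76 and -3.64, and at 50.7 and 16.3 CPM in non-myeloid cells. Gpr34 stood at 153 CPM in N-PRα-KO border macrophages and 167 CPM in WT border macrophages, with ratios of -1.98 (-2.29 to -1.68) and -2.88 (-3.46 to -2.37). Siglech stood at 167.5 CPM (106 UMIs) and 55.6 CPM (10 UMIs), with ratios of -3.40 (-3.69 to -3.12) and -5.09 (-6.15 to -4.21). The intervals of Gpr34 and of Siglech did not overlap between the libraries, and the difference itself has no replicate check.

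Sall1, Tmem119 and Selplg were the scarcest in border macrophages. Sall1 had 12 UMIs in the 94 N-PRα-KO border macrophages (19 CPM, interval 9.80 to 33.1) and 1 UMI in the 45 WT border macrophages (5.56 CPM, 0.14 to 31.0), both below its level in non-myeloid cells of 38.3 and 92.0 CPM. Since that non-myeloid level differed by class, the endothelial-like cells, which had the least of the classes given below, were also set beside it. Endothelial-like cells stood at 17.5 CPM for N-PRα-KO and 11.7 CPM for WT, each inside the border macrophage interval of its library. Sall1 in border macrophages was thus not detectable above the endothelial-like level. Mural-like cells, at 14.4 CPM for N-PRα-KO and 19.5 CPM for WT, also lay inside that interval. Choroid-plexus-like and olfactory-like N-PRα-KO cells lay below it, at 7.36 and 7.32 CPM, on 4 and 3 UMIs. The reading for N-PRα-KO cells thus depended on the class taken as background. The log2 ratio of Sall1 over microglia was -5.05 (-6.00 to -4.24) among N-PRα-KO cells and -7.63 (-12.94 to -5.15) in the WT library, the lowest of the 8 genes in each. Tmem119 had 24 UMIs in N-PRα-KO border macrophages (37.9 CPM, 24.3 to 56.4), an interval that included the 30.9 CPM of non-myeloid cells. Tmem119 and Selplg had 0 UMIs in 45 WT border macrophages, which allows a level of up to 16.7 CPM and a UMI in up to 6.67% of cells. For Selplg that share is above the 6.10% of WT microglia with a UMI, so a share below the microglial one was not detectable at this depth. With the count of 0 set to 3, the log2 ratio over WT microglia was -2.61 (-4.91 to -1.04) for Tmem119 and -0.52 (-2.87 to 1.15) for Selplg. The interval of Selplg included 0. Selplg had 30 UMIs in N-PRα-KO border macrophages (47.4 CPM, 32.0 to 67.7), against 11.9 CPM in non-myeloid cells.

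**Figure D3:**
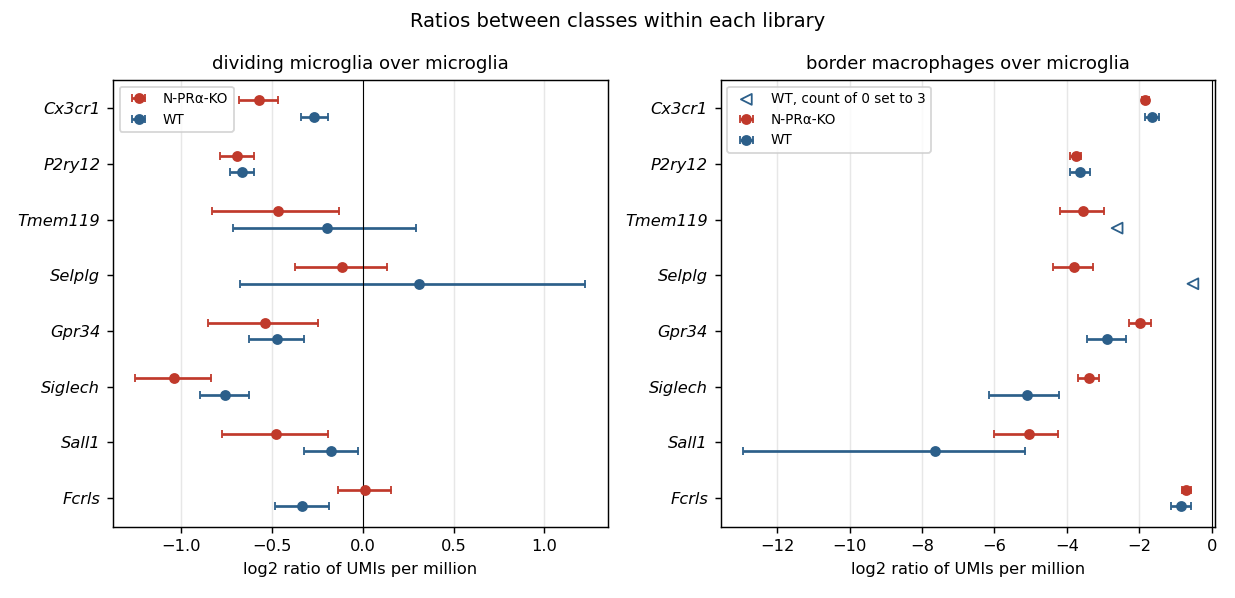
Log2 ratios (horizontal axis) of dividing microglia over microglia (left panel) and of border macrophages over microglia (right panel) for each of the 8 genes, within the N-PRα-KO library (red, upper point) and the WT library (blue, lower point), with exact conditional 95% intervals for counting error. Open triangles mark a WT border macrophage count of 0, set to 3. In border macrophages Sall1 is lowest, at -5.05 and -7.63, and Fcrls nearest to 0 among ratios with a UMI on both sides, at -0.70 and -0.84.

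Outside the myeloid cells the 8 genes stood far below their microglial level, with Sall1 and Tmem119 the nearest to it. Over all non-myeloid cells the other 6 genes stood at 0.58% to 2.19% of their microglial level among N-PRα-KO cells and at 0.11% to 0.45% among WT cells. Selplg had 4 UMIs in 9188 WT non-myeloid cells. Sall1 stood at 62.6 CPM in N-PRα-KO astrocyte-like cells and 167 CPM in WT astrocyte-like cells, at 41.0 and 133 CPM in neuronal-lineage-like cells, and at 17.5 and 11.7 CPM in endothelial-like cells. With cells thinned, 29.99% of WT astrocyte-like cells and 1.42% of WT endothelial-like cells had a Sall1 UMI, so these WT levels were not a uniform background. In fibroblast-like cells Tmem119 stood at 60.5 CPM in the N-PRα-KO and 19.8 CPM in the WT library (54.9 to 66.4 and 15.3 to 25.1), against 13.3 and 0.682 CPM in astrocyte-like cells. Other members also differed between classes in the N-PRα-KO library. Cx3cr1 stood at 118 CPM in N-PRα-KO (109 to 128) and 10.8 CPM in WT endothelial-like cells (6.91 to 16.1), against 66.1 CPM in N-PRα-KO (58.9 to 73.9) and 13.8 CPM in WT astrocyte-like cells (11.2 to 16.7). Fcrls stood at 59.2 and 4.045 CPM in endothelial-like cells, against 34.1 and 2.59 CPM in astrocyte-like cells.

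Set side by side, N-PRα-KO and WT microglia differed in these genes in no common direction. The median N-PRα-KO over WT log2 ratio of the 8 genes was 0.02, as was that of all 6529 genes with 20 CPM or more on either side. Past the 2-fold limit, 2 genes were higher in N-PRα-KO microglia, where 16.6% of all genes were, and 1 was lower, where 7.73% were. The higher ones were Selplg, with a log2 ratio of 4.80 (4.31 to 5.33), a 27.8-fold difference that placed it above 99.8% of all genes, and Tmem119, with 2.12 (1.87 to 2.38). The lower one was Gpr34, with -1.03 (-1.12 to -0.93). Sall1 lay just inside the limit at -0.82 (-0.91 to -0.72), and Fcrls stood at 0.57 (0.49 to 0.65). Cx3cr1 at 0.14, P2ry12 at -0.23 and Siglech at -0.09 were nearest to 0. Every one of the 8 intervals excluded 0, 4 on each side. At these counts an interval for counting error alone excluded 0 even at the -0.09 of Siglech. How many of all genes did so was not counted.

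The library ratio in microglia went with base composition, and so did the order of the 8 genes. Across 6512 genes, which are not independent replicates, the N-PRα-KO over WT log2 ratio had a Spearman rho of 0.58 with the GC content of the last 500 bases of the transcript. With the genes split into 5 bins of GC content, the median ratio was -0.45 in the poorest bin and 1.003 in the richest. Selplg and Tmem119 were the 2 members richest in GC there, at 56.2% and 53.6%, and Gpr34 was the poorest at 28.8%, with P2ry12 at 30.2%, Sall1 at 34.0%, Siglech at 36.2%, Fcrls at 37.8% and Cx3cr1 at 43.0%. With the trend across all genes removed, the ratio of Selplg was 3.64 and that of Tmem119 was 1.13, both still past the limit, where 9.41% of genes were higher. Gpr34 was then at -0.48 and Sall1 at -0.42, so that no member was past the limit on the lower side, where 6.76% of genes were. P2ry12 changed sign to 0.29 and Siglech to 0.22, Cx3cr1 stayed at 0.13, Fcrls stood at 0.81 and the median of the 8 was 0.26. Whether base composition set any of these values was not tested, and the pipeline runs of the 2 libraries, of different date and version, cannot be told apart from genotype.

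**Figure D4:**
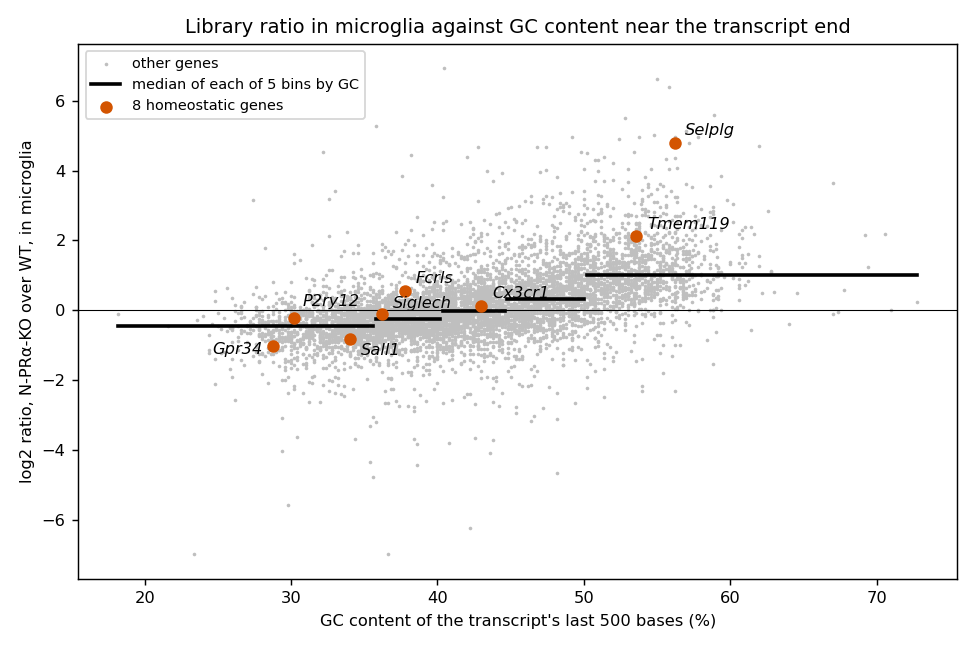
N-PRα-KO over WT log2 ratio in microglia (vertical axis) against the GC content in percent of the last 500 bases of the transcript (horizontal axis) for 6512 genes, with the 8 homeostatic genes in orange and the medians of 5 bins of genes by GC as black lines. Selplg (4.80) and Tmem119 (2.12) lie at the GC-rich end, and Gpr34 (-1.03) at the GC-poor end.

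In dividing microglia Selplg and Tmem119 were again the highest of the 8 between the libraries and Gpr34 and Sall1 the lowest. Selplg had an N-PRα-KO over WT log2 ratio of 4.37 (3.60 to 5.25) and Tmem119 of 1.85 (1.30 to 2.42), both past the limit, where 20.8% of all genes were higher. Gpr34 at -1.10 (-1.43 to -0.77) and Sall1 at -1.12 (-1.44 to -0.81) were past it on the lower side, where 13.7% of genes were. The median of the 8 was -0.21, against 0.06 over all genes, and 0.13 with the GC trend removed. With that trend removed the calls changed, since Gpr34 at -0.55, Sall1 at -0.67 and Tmem119 at 0.69 fell inside the limit, while Selplg at 3.01 and Fcrls at 1.19 lay past it. Fcrls stood at 0.91, Cx3cr1 at -0.17, P2ry12 at -0.25 and Siglech at -0.38. The WT class held 123 cells and the N-PRα-KO class 26, so the ratios of Tmem119 and Selplg rest on 45 and 15 WT UMIs.

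In border macrophages, 7 of the 8 genes reached 20 CPM in either library. Siglech, Tmem119 and Selplg, 3 of the 7, were called higher in the N-PRα-KO library, where 18.7% of all genes were. On the lower side 0 were called, where 16.5% of all genes were. Tmem119 and Selplg reached 20 CPM in the N-PRα-KO library only, so they could not have been called lower. Their calls rest on the floor of 3 counts, and no direction of the set is read from these numbers. The border macrophages of the libraries also lay apart, with all 94 N-PRα-KO cells and 2 WT cells in sub-cluster 6 and 43 WT cells in sub-cluster 7. Siglech was 3.01-fold higher in N-PRα-KO border macrophages, with a log2 ratio of 1.59 (0.66 to 2.69). Of the 10 WT UMIs of Siglech, 6 were in sub-cluster 7, which without the other 2 WT cells stood at 36.0 CPM (13.2 to 78.3), against 55.6 CPM with them. Tmem119 and Selplg had 0 UMIs in WT border macrophages and, against the level 3 UMIs would give, were 2.27-fold and 2.84-fold higher in N-PRα-KO border macrophages. With a WT count of 3 the log2 intervals were -0.53 to 3.56 and -0.18 to 3.86, which include 0. With the GC trend removed Tmem119 at 0.26 and Selplg at 0.40 fell inside the limit, and Siglech at 2.03 and Fcrls at 1.07 lay past it. Cx3cr1 at -0.04 (-0.25 to 0.17), Gpr34 at -0.12 (-0.72 to 0.52) and P2ry12 at -0.35 (-0.67 to -0.02) lay near 0, and Fcrls stood at 0.71 (0.42 to 1.0). Sall1, at 12 and 1 UMIs, gave a ratio of 1.77 with an interval of -0.99 to 7.19. The non-myeloid level of Tmem119, Selplg and Siglech was also higher in the N-PRα-KO library, at 30.9 against 2.88 CPM, 11.9 against 0.108 CPM and 10.3 against 2.10 CPM, and its part in these ratios was not tested.

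The genes whose levels over 22 class-by-library profiles were most like the mean of the 8 were Parvg (Pearson's r 0.984), Mpeg1 (0.980), Slc2a5 (0.979), Havcr2 (0.977) and Bin2 (0.975), among 4932 genes at 20 CPM or more in microglia of both libraries. Parvg stood at 472 CPM in N-PRα-KO microglia and 227 CPM in WT microglia, and Mpeg1, a pore-forming protein of macrophages, at 862 and 833 CPM. The members' own r with that mean lay between 0.579 for Sall1 and 0.985 for Siglech. The profiles share libraries, so r is a description.

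Among 26 other genes of the microglial signature, 4 were higher and 0 lower past the limit in N-PRα-KO microglia, where 16.6% and 7.73% of all genes were, so the share that was higher was near that of all genes. Their median log2 ratio was 0.32, or 0.22 with the GC trend removed, when 2 were higher and 1 lower. The largest ratios were those of Itgb5, an integrin subunit, at 315 CPM in N-PRα-KO microglia and 92.2 CPM in WT microglia, Ltc4s, which makes leukotriene C4, at 405 and 136.5 CPM, and Crybb1, a crystallin, at 630 and 246 CPM. With the trend removed Itgb5 stayed past the limit at 1.05, and Ltc4s and Crybb1 were at 0.15 and -0.01. In border macrophages 22 of the 26 were lower than in microglia past the limit in the N-PRα-KO library and 21 in the WT library, as most of the 8 were, though 7 of the 26 were markers used to name microglia. In dividing microglia 6 of the 26 were lower past the limit in each library, with medians of -0.54 in the N-PRα-KO library and -0.66 in the WT library.

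Factors that build microglial identity were mixed between the libraries, with 1 of 15 higher and 3 lower in N-PRα-KO microglia and a median log2 ratio of -0.01. With the GC trend removed 1 was higher and 5 lower, with a median of -0.19. Over all genes 16.6% were higher and 7.73% lower past the limit, or 9.41% and 6.76% with the GC trend removed. Csf1, a ligand of the receptor Csf1r, stood at 58.0 CPM in N-PRα-KO microglia and 304 CPM in WT microglia, Nrros, which holds latent TGF-β on the microglial surface, at 133 and 360 CPM, and Itgb8, an integrin subunit that activates latent TGF-β, at 8.90 and 28.2 CPM. Of 15 disease-associated genes 3 were higher, near the share of all genes, and 5 lower, with a median of -0.22. With the GC trend removed 1 was higher and 3 lower, with a median of -0.63. Ctsd, a lysosomal protease, stood at 697 CPM in N-PRα-KO microglia and 73.2 CPM in WT microglia, Lpl, lipoprotein lipase, at 43.5 and 393.5 CPM, and Igf1, insulin-like growth factor 1, at 16.8 and 54.2 CPM. Both lists held genes past the limit on either side with and without the trend, and Clec7a was in neither table.

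Immediate early genes, which also respond to dissociation, were lower past the limit in N-PRα-KO microglia for 15 of 18, where 7.73% of all genes were. Their median was -1.31, and 0 were higher, where 16.6% of all genes were. With the GC trend removed 13 of 18 were lower past the limit, where 6.76% of all genes were. Nfkbiz, a regulator of NF-κB, stood at 96.9 CPM in N-PRα-KO microglia and 1570 CPM in WT microglia, Atf3, a stress-induced transcription factor, at 183 and 1646 CPM, and Nr4a1, an orphan nuclear receptor, at 65.3 and 441 CPM. With these, the ribosomal protein and the mitochondrial genes left out of the totals, the median of the 8 genes in microglia was 0.03. Of 8 listed molecules that work with these receptors and with microglial clearance, 4 reached 20 CPM. Of those, 1 was higher and 0 lower past the limit, where 16.6% and 7.73% of all genes were. Tyrobp, the adaptor of Siglech, stood at 1467 CPM in N-PRα-KO microglia and 574 CPM in WT microglia, a log2 ratio of 1.35, and of 0.38 with the GC trend removed. Kcnk13, the potassium channel opened through P2ry12, stood at 28.7 and 45.05 CPM, and Gas6, a bridging ligand of the Mertk and Axl receptors, at 101 and 80.9 CPM. Cx3cl1, the ligand of Cx3cr1, had 5 UMIs in N-PRα-KO microglia and 3 in WT microglia, and Selp, a selectin that binds Selplg, had 0 UMIs in both, which allows up to 0.989 and 2.11 CPM.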

How the data were processed

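The data were single-cell RNA-seq tables of 1 N-PRα-KO and 1 WT library. The deposited values were whole-number UMI counts per cell and gene, corrected for sequencing errors, made by the authors with the BD Rhapsody WTA pipeline (1.10 for N-PRα-KO, 1.10.1 for WT) against GRCm38 and GENCODE M19, per the file headers. The submitters' processing notes name GRCm38 and mm10. The name of the aligner is not given in sources used here. The BD Rhapsody kit reads RNA from the 3′ end, and whether counting used strand is not stated, so overlapping genes are uncertain.

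Kept cells had 300 or more genes and no more than 25% of UMIs from mitochondrial genes, and doublets called by Scrublet (28 N-PRα-KO cells, 0.667%, and 173 WT cells, 1.72%) were removed with scanpy 1.11.5. Each cell was scaled to 10000 counts before a log transform. Leiden clustering (leidenalg 0.10.2, resolution 1) used 2000 variable genes, 30 components and 20 neighbours without integration, and the myeloid cells were clustered again with 1000 variable genes and 20 components. The 8 genes were left out of both. Classes were named from marker scores with thresholds chosen after seeing the clusters, and 30 N-PRα-KO and 48 WT cells stayed unnamed.

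UMIs were summed per class and library. CPM carry exact Poisson intervals, shares exact Clopper-Pearson intervals and log2 ratios exact conditional intervals, with a confidence of 95%. A count of 0 was set to 3 for ratios, which then rest on that floor. A gene was called past the limit at a log2 ratio of 1 or more in size over genes reaching 20 CPM on either side. The ratio procedure was run on simulated Poisson counts with known folds, the model that its intervals assume. That run held no GC trend and no differences between cells, so it checks the calculation and not the library comparison. The GC trend was a lowess curve (statsmodels 0.14.6, fraction 0.3) over the last 500 bases of the transcript in GENCODE M21, another release on the same build, which also gave gene positions. Profiles used log2(CPM + 1) over classes with at least 20 cells. From each other list the 3 genes with the largest ratio in microglia are named, and the 5 genes most like the mean of the 8. The members and lists were chosen with earlier results of these data known.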

Additional observations from a re-analysis of the deposited data

Results flagged for a closer look

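The 8 genes also had UMIs in barcodes that the classes leave out. In the 4126 N-PRα-KO barcodes over the mitochondrial limit they summed to 575.7 CPM, against 265 CPM in N-PRα-KO non-myeloid cells and 17290 CPM in N-PRα-KO microglia. In the 1329 WT barcodes over the limit they summed to 147 CPM, against 131 CPM in WT non-myeloid cells and 17630 CPM in WT microglia. At least 3 of the 8 genes were found in 275 of these N-PRα-KO barcodes and 12 of these WT barcodes, at median depths of 1701.5 and 1266 UMIs.

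A myeloid sub-cluster of 13 N-PRα-KO and 28 WT cells stayed unnamed, with the monocyte gene Ccr2 among its leading genes. The 8 genes summed to 6448 CPM in its N-PRα-KO cells and 8885 CPM in its WT cells. P2ry12 stood at 2633 and 4008 CPM there and Cx3cr1 at 1772 and 2093 CPM, while Ccr2 stood at 295 and 434 CPM and Ly6c2 at 541.5 and 76.6 CPM. These cells were in no comparison above.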

How the results depend on the processing

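Of 73 values of the median over the 8 genes under other filters, clusterings, scalings, thinning and removal of the GC trend, 70 stayed within the counting interval of the value reported. The median N-PRα-KO over WT log2 ratio in microglia was 0.02, and became -0.04 with a mitochondrial limit of 50% and 0.255 with the GC trend removed. In dividing microglia it was -0.21, and became 0.13 with the GC trend removed. Of 584 values of single genes, 553 stayed within their interval, 29 moved and 2 reversed. The reversed ones were the N-PRα-KO over WT ratios in border macrophages of Selplg (1.51) and Sall1 (1.77), which became -0.15 and -0.63 with cells thinned to 2000 UMIs, where no WT UMI was left and the floor of 3 counts set the value. The share of all genes past the 2-fold limit in microglia was 24.3% as reported, 23.4% for genes at 100 CPM or more and 33.4% for genes with at least 3 UMIs. In dividing over other microglia it was 22.9% in the N-PRα-KO library and 15.4% in the WT library, and 40.1% and 23.6% for genes with at least 3 UMIs. Leaving out cells whose barcode number occurs in both libraries, an alternative chosen after seeing the data, kept every median within its range above. No paired analysis was possible because each genotype had 1 library and no result came from a test.

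The 45 WT border macrophages and 26 N-PRα-KO dividing microglia limit what can be seen of scarce genes. No interval here covers variation between animals or preparations. The level of sex-linked genes, pipeline run and depth go with genotype in these libraries. Age is not given, and the genotype labels name a strain for the WT mice only.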
